A study of Homo sapiens with 6 samples.

Results

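The replication-dependent histone genes were taken as the protein-coding genes of the GENCODE annotation on hg38 whose symbol begins with H2AC, H2BC, H3C or H4C and a number, or is one of H1-1 to H1-6. They numbered 69 of 20033 protein-coding genes on chromosomes 1 to 22, X and Y, and comprised 6 H1, 17 H2A, 18 H2B, 13 H3 and 15 H4 genes. Members less than 300 kb apart were grouped, which placed 34, 5 and 16 genes in the first, the second and the third cluster of chromosome 6, 11 and 2 genes in the first and second clusters of chromosome 1, and H4C16 alone on chromosome 12. These genes encode the bulk of the core histones H2A, H2B, H3 and H4 and of the linker histone H1. They are short, mostly without introns, and are transcribed in S phase when new DNA is packaged. Their mRNAs end in a stem-loop in place of a poly(A) tail, and their transcription and 3′ processing are concentrated in nuclear structures called histone locus bodies, which the coactivator NPAT organises.

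Open chromatin was profiled with ATAC-seq, which uses the transposase Tn5 to cut and tag accessible DNA. The cells were neural progenitors (NPCs) made from H1, a line of human embryonic stem cells, and the 6 samples fell into 3 groups with 2 replicates in each, namely WT NPCs, dKO NPCs with both UTX (KDM6A) and JMJD3 (KDM6B) knocked out, and dKO NPCs to which the neuronal BAF complex subunit BAF53B (ACTL6B) had been added by lentivirus. UTX and JMJD3 remove a repressive methyl mark from a lysine of histone H3, the protein that the H3C genes encode. Per the study's methods the knockouts were made by targeting the catalytic parts of the genes and selecting clones, and how many clones entered the ATAC-seq is not given in the sources used here. Per the labels, all groups were NPCs of the H1 line, and the BAF53B group is marked in its sample title, while its genotype label names the knockouts alone. The study places its ATAC-seq of WT and dKO NPCs at passage 2, and their sample titles read NPC2. The title of the BAF53B group reads NPC without a number, so a difference in passage could not be told apart from BAF53B. The study's figure of ATAC-seq with BAF53B names differentiated cells, while the labels used here read NPC. The stage of this group is thus known from its labels alone. No group of dKO NPCs with a control virus was among the samples. An effect of the virus could therefore not be told apart from BAF53B either. The comparisons asked where chromatin at these genes was open in WT NPCs, in dKO NPCs and in dKO NPCs with BAF53B.

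Each group had 1 peak list pooled over its replicates, so the values below carry no replicate error, no test was possible, and every difference describes the pooled libraries alone. The lists held 7880 peaks in WT, 25439 in dKO and 16948 with BAF53B. Their genome background, the mean number of fragments expected at a position, was 6.33, 6.81 and 6.78, so depth differed by at most 1.08 times while the number of peaks differed more. The pileup of a peak is the number of fragments that cover its summit, and its fold is that pileup over the local background. No peak lay within 1 kb of the start of KDM6A in WT, against a pileup of 45 in the dKO list and 32 in the BAF53B list. KDM6B had a peak at its start in all lists, with pileups of 53, 118 and 52, and the one at ACTL6B had 37, 34 and 30. The knockouts do not remove these starts, so the peaks do not check the genotypes. Of 8 neural progenitor markers, 1 had a peak at its start in WT (VIM), 5 in dKO and 4 with BAF53B, while none of 5 pluripotency markers had one in WT or with BAF53B and 2 (LIN28A and TDGF1) had one in dKO. NES and PAX6 had none in any list, and 1 of 3 neuron markers (SYT1) had one in each list. The study reports, from its ATAC-seq of WT and dKO NPCs, less accessible chromatin in dKO at SOX2, SOX1, NES and many other promoters. In the lists used here SOX2 and SOX1 had no WT peak and pileups of 70 and 46 in dKO, which is the opposite direction. The reason for this difference from the study's account was not tested. A peak marks an open promoter and not expression, and the part of differences in cell state in the results below was not tested.

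The promoters that the results turn on are shown first. In 12 places an H2A and an H2B gene start next to each other on opposite strands, 170 to 251 bp apart (median 234.5 bp), so that 1 stretch of DNA serves as the promoter of both. The bases between the starts are given for the pair with the highest pileup in dKO (H2BC11/H2AC11, chr6:27132796-27133042), for the pair with a peak in dKO alone (H2AC14/H2BC14, chr6:27814778-27815021) and for the pair without a peak in any list (H2AC1/H2BC1, chr6:25726563-25726776), all in hg38 and read on the plus strand. Capitals mark the words CCAAT (the CCAAT box, bound by NF-Y), TATAAA (the TATA box, bound by the TATA-binding protein) and ATTTGCAT (the octamer, bound by the POU-domain factor OCT1), each on either strand.
H2BC11/H2AC11: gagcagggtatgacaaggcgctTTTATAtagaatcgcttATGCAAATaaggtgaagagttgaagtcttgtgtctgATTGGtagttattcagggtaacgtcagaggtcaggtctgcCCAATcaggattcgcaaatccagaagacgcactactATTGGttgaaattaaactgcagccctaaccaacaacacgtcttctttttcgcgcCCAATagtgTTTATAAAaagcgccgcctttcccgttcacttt
H2AC14/H2BC14: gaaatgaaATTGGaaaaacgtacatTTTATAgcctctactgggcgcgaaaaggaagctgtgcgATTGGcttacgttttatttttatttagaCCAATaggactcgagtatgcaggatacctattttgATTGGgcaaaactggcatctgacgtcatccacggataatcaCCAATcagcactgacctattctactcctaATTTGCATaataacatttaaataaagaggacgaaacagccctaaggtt
H2AC1/H2BC1: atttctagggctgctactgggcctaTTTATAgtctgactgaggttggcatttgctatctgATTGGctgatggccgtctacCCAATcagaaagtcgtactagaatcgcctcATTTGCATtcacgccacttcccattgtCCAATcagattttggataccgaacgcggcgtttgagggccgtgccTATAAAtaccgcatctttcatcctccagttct

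All 12 pair promoters held 3 to 6 CCAAT words, 8 held at least 1 TATA word and 9 held 1 octamer. Overlapping words were counted separately. The pair without a peak had 3 CCAAT words, 2 TATA words and an octamer, the same counts as H2BC21/H2AC20, which had a peak in each list. The GC content of the 12 promoters was 38.3% to 48.9%.

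Genes with a promoter of their own are represented by the 150 bases before the canonical start of H3C2 (chr6:26032100-26032249, minus strand), which had 1 of the highest ratios of dKO to WT, H4C3 (chr6:26103783-26103932, plus strand), the H4 gene of highest fold in dKO and without a WT peak, and H1-2 (chr6:26056471-26056620, minus strand), the only H1 gene with a peak in more than 1 list. They read 5′ to 3′ toward the gene, with the same words in capitals and in addition GGTCCG, the core of the H4 element called site II that HINFP binds, and AAACACA, the H1 box.
H3C2: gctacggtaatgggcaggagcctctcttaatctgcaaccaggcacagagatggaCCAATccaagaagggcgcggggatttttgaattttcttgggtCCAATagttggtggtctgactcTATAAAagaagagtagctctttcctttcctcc
H4C3: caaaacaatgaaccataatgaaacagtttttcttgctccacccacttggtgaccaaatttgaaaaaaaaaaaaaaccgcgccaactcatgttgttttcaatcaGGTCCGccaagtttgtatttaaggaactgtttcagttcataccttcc
H1-2: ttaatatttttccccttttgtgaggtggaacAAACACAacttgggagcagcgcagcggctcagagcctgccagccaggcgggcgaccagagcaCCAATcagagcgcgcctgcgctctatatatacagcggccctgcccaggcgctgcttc

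Over the 300 bases from 250 before to 50 after the canonical start, a CCAAT word was found in 59 of 69 members (85.5%) against 36.1% of all protein-coding genes, and a TATA word in 46 (66.7%) against 9.71%. The octamer was found in 12 of 17 H2A and 14 of 18 H2B genes and in no H1, H3 or H4 gene, against 1.62% of all genes. The H4 core was in 13 of 15 H4 genes against 14.7% of all genes, and the H1 box in 6 of 6 H1 genes against 4.19%. Median GC content of the same window was 44% in the members and 63.7% in all genes. A word is a match of letters and was not taken as a bound site.

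Histone genes with a peak within 1 kb of the gene start were more numerous in the dKO and BAF53B lists than in the WT list, as were genes in general. A peak was called at 21 members (30.4%) in the WT list, at 46 (66.7%) in the dKO list and at 41 (59.4%) in the BAF53B list. Over all 20033 protein-coding genes the shares were 26.6%, 52.9% and 42.1%. The members' share lay above that of all genes in each list, least so in WT. Because members share peaks, these counts rested on 11, 30 and 28 distinct peaks. A summit within 250 bp of the canonical start was also required, a setting chosen after seeing the data. The counts were then 18 (26.1%), 44 (63.8%) and 35 (50.7%) of the members, against 23.0%, 44.9% and 35.8% of all genes.

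The families differed in their counts. The H2A genes had a peak at 8, 13 and 13 of 17 members in WT, dKO and BAF53B, and the H2B genes at 8, 15 and 14 of 18. The H3 genes, which encode the histone that carries the mark, had one at 3, 8 and 7 of 13. The H4 genes had one at 2, 7 and 6 of 15, and the linker histone H1 genes at 0, 3 and 1 of 6. In every family the dKO list held more members than the WT list. By these counts BAF53B equalled dKO for H2A and was lower by 1 to 2 genes in the other families. The H2A, H2B, H3 and H4 families, but not H1, include chromosome 1 members in repeated sequence (described below). A missing peak cannot be read at those members, so the shares of the families are not fully alike in basis. Some of these peaks lie at the start of a neighbour. With a summit required within 250 bp of the canonical start, the counts were 7, 13 and 13 for H2A and 8, 15 and 13 for H2B. They were 1, 6 and 4 for H3, 2, 7 and 4 for H4, and 0, 3 and 1 for H1. Over all members this order of dKO and BAF53B depended on the length of the lists, since 27 members had a dKO peak and 29 a BAF53B peak when each list was cut to its 7880 peaks of highest −log10 q.

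**Figure D1:**
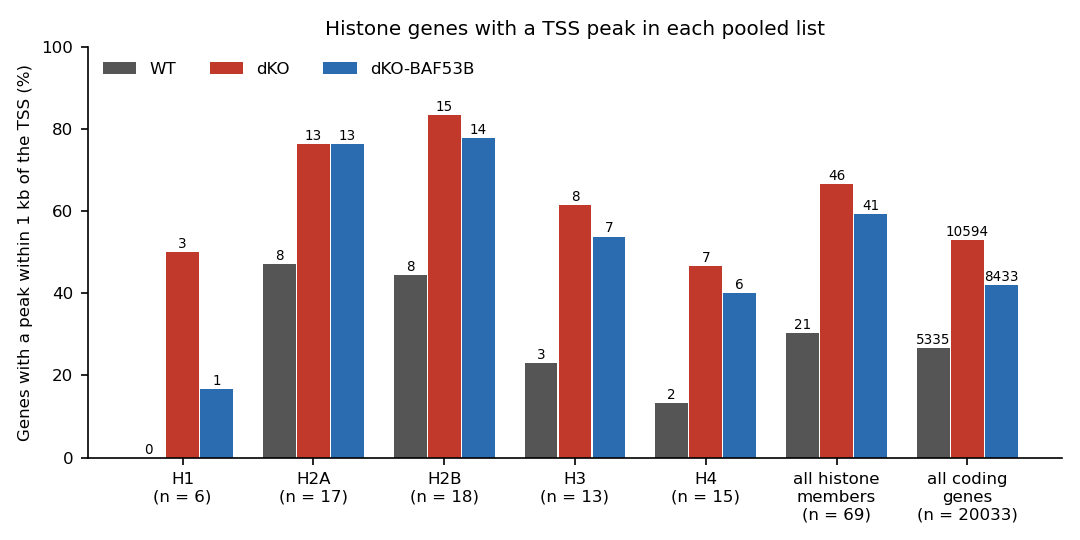
Share of histone genes with a peak within 1 kb of the TSS (y axis, %) by family in the 3 pooled lists, beside all members and all protein-coding genes, with the number of genes above each bar. H2A and H2B genes had the highest shares in each list, and no H1 gene had a peak in WT.

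The placement of the genes went with these counts. Of the 24 genes in H2A-H2B divergent pairs, 14 (58.3%) had a WT peak, 22 (91.7%) a dKO peak and 20 (83.3%) a BAF53B peak. Of the other 45 members, 7 (15.6%), 24 (53.3%) and 21 (46.7%) had one. Among all protein-coding genes, those in divergent pairs had a peak in 58.6%, 86.6% and 80.2%, and those outside such pairs in 23.7%, 49.8% and 38.6%. The shares of the paired histone genes were thus close to those of divergent genes in general in WT. For members outside pairs the like set leaves out H3C7, H2BC9 and H3C12 too, which lie in divergent pairs of another kind. Of the 42 members left, 6 (14.3%), 21 (50%) and 18 (42.9%) had a peak, a share below the general one in WT and near it in dKO. H2A and H2B genes outside such pairs had a peak at 2, 6 and 7 of 11. The 45 and the 42 both include 8 chromosome 1 members in repeated sequence (described below), and none of these 8 had a peak. H2BC18, H2AC18 and H2AC19 are among the 11. The shares outside pairs are thus lowered by genes at which a missing peak cannot be read, and the paired genes include none of them. Within a pair the strongest peak was the same for both starts in all 7 pairs with peaks in WT, in all 11 in dKO and in 9 of 10 with BAF53B. Paired starts lie at most 251 bp apart and each was searched over 1 kb on either side, so this sharing follows largely from the windows.

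**Figure D2:**
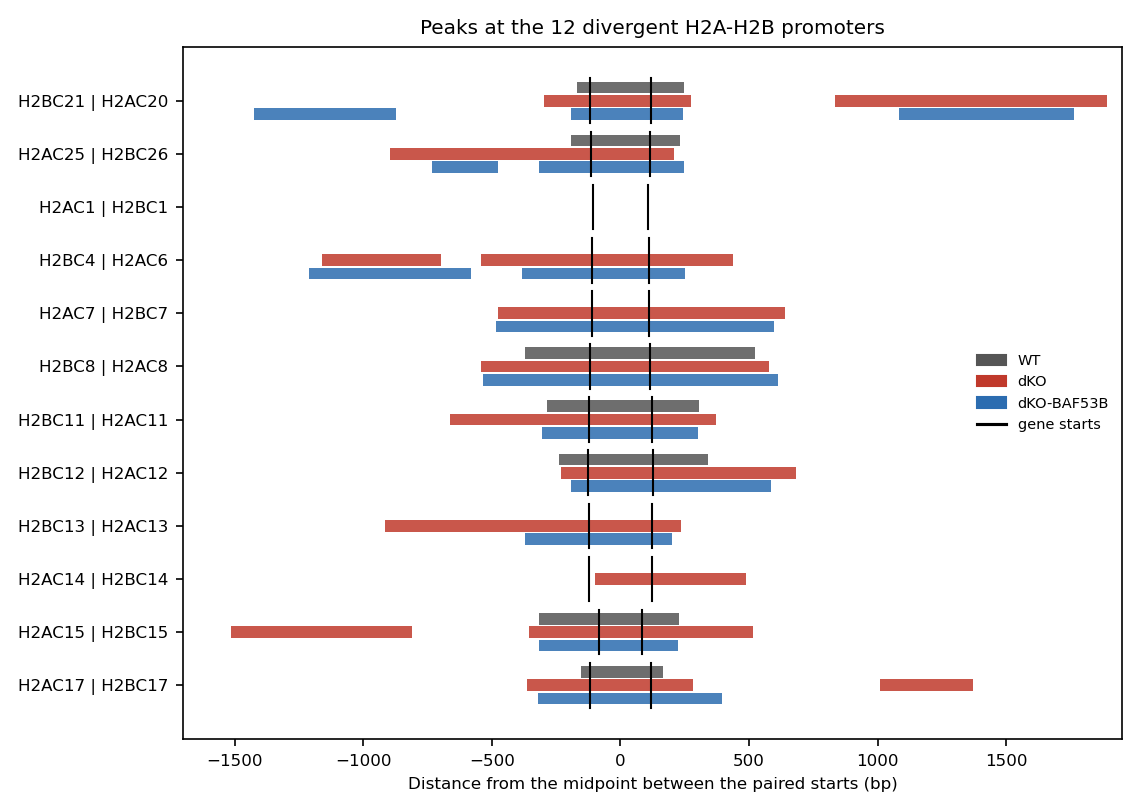
Extent of each peak (bars, bp from the midpoint between the paired starts) within 1 kb of either start at the 12 divergent H2A-H2B promoters in the 3 lists, with black lines at the gene starts. Where a pair had peaks in a list, at least 1 overlapped the space between the starts, and H2AC1/H2BC1 had none.

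Among the clusters of more than 2 genes, the second chromosome 6 cluster had the highest shares, with peaks at 4, 5 and 5 of its 5 genes in WT, dKO and BAF53B. The first chromosome 6 cluster, which spans 559 kb, had peaks at 7, 26 and 22 of 34, and the third at 5, 10 and 9 of 16. In the first chromosome 1 cluster the same count of 3 of 11 genes had a peak in each list, and both genes of the second had one in each list. Within the clusters and 10 kb beyond them there were 14, 49 and 40 peaks in the 3 lists, of which 11, 39 and 34 lay at members, 0, 2 and 1 at starts of other protein-coding genes and 3, 8 and 5 elsewhere. The 42 other protein-coding genes within 300 kb of a cluster had a peak in 4, 23 and 15 cases, or 9.52%, 54.8% and 35.7%. They include BOLA1, which starts beside H2AC21, and ENSG00000282988, which starts where H2AC7 does. The peaks counted for these genes are also those of members.

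The absence of peaks on chromosome 1 cannot be told apart from sequence repetition. The 8 chromosome 1 members without a peak (H2BC18, H3C13, H4C14, H3C14, H2AC18, H2AC19, H3C15 and H4C15) lie in a duplicated stretch, in which 0% to 36.0% of the 50-base words within 1 kb of the start occur once in the genome. H3C14, H3C15, H4C14 and H4C15 had no such word. How reads with several matches were handled is not given in the sources used here. Of the 50 members with at least 90% unique words, 16 (32%), 37 (74%) and 34 (68%) had a peak in WT, dKO and BAF53B, and of the 11 members between 50% and 90%, 5, 9 and 7.

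The genes with a peak in dKO and none in WT were compared next. There were 25 such members (36.2%) against 26.7% of all genes, and 0 in the opposite direction, against 0.404% of all genes. In lists cut to 7880 peaks, the count fell to 6 members (8.70%, against 8.90% of all genes), H2BC4, H2AC6, H4C3, H3C8, H2BC10 and H4C8, and the share of members with a peak in dKO to 39.1% (31.6% of all genes). At a −log10 q of at least 10, there were 19 such members (27.5%, against 26.6% of all genes). At both settings the members were thus near the general share. A missing WT peak is not a closed promoter, since no list held a peak with a pileup under 25 fragments or a −log10 q under 5.

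H2BC10 had the highest pileup among these 25 genes, 71 fragments in dKO (5.19-fold over the local background) and 42 with BAF53B (3.33-fold). H3C8 lies within 1 kb of the same peaks, and its own start had a weaker peak in dKO alone, with 38 fragments (2.69-fold). H4C3 (ENSG00000197061.5, chromosome 6, 26103933 to 26104337, plus strand) had 62 fragments in dKO (5.70-fold) and 35 with BAF53B (3.42-fold), and its log2 ratio of BAF53B to dKO was -0.82 (95% interval of counting error -1.46 to -0.20). The other H4 genes of this kind had lower pileups. H4C8 had 52 and 41 fragments in dKO and BAF53B, H4C5 53 and 45, and H4C9 34 and 32. H4C2 had 46 in dKO alone, at a summit 863 bp past its start and 476 bp past its annotated end, beside a second dKO peak at its start with 45.

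The H2A and H2B genes of this group were mostly paired. H2BC4 and H2AC6 shared a dKO peak of 55 fragments, and the BAF53B peak at the same place had 43. A second peak, past the start of H2BC4, had 49 in each list and was the strongest with BAF53B. H2AC7 and H2BC7 shared peaks of 57 and 43, and H2BC13 and H2AC13 of 47 and 43. H2AC14 and H2BC14, the pair printed above, had in dKO alone 30 fragments (3.04-fold), close to the lowest pileup of the list. Outside the pairs, H2AC4 had 50 and 36 fragments, H2BC6 40 and 31, and H2BC9 38 and 41. These peaks ranged from near the calling limit to 71 fragments, and of the genes with a peak in both lists only H2BC9 had more fragments with BAF53B.

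The H3 and H1 genes of this group had modest pileups. H3C6 had 2 peaks in each list, with 45 fragments in dKO and 38 with BAF53B at the canonical start and 42 and 54 about 1 kb before it, so its strongest peaks in the lists were not the same peak. H3C7 shared the peak of H2BC9 and had in dKO a further one at its own start, with 34 fragments. H3C10 had 43 and 39 fragments, and H3C4 44 in dKO alone. H1-2 (ENSG00000187837.4, chromosome 6, 26055740 to 26056470, minus strand) had 2 peaks in each of dKO and BAF53B, with 33 and 36 fragments at the start and 39 and 41 at a summit 246 and 377 bp past the annotated end. H1-4 had 47 fragments and H1-3 34 in dKO alone, with summits 39 and 41 bp past the start. H1-2, H1-3 and H1-4 encode linker histones of somatic cells, and no H1 gene had a peak in WT.

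The 21 members with a peak in WT had one in dKO and with BAF53B too. At these the summit pileup was higher in dKO than in WT. A ratio was formed from pileups divided by the genome background of each list, with members that share peaks counted once. All 11 ratios of dKO to WT lay above 0 on the log2 scale, with a median of 0.58 (1.49-fold) and a range from 0.08 to 1.23. The interval of counting error lay above 0 in 8 of 11. Over all 4281 such peak pairs of protein-coding genes the median was 0.76 (1.69-fold), with 96.0% above 0. The 95% order-statistic interval of the histone median, 0.42 to 1.17, describes the spread over the 11 peak pairs of the pooled lists. Peaks are not replicates, so the interval tests no difference from all genes. On the authors' fold, which divides by the local background, the medians were 0.27 and 0.49.

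The highest ratio was at H2BC11/H2AC11, the first printed promoter (H2BC11, ENSG00000124635.9, chromosome 6, 27125897 to 27132795, minus strand; H2AC11, ENSG00000196787.4, 27133043 to 27133535, plus strand). The pileup was 44 fragments in WT against 111 in dKO and 63 with BAF53B, and the fold 4.43, 7.98 and 5.49. The log2 ratio of dKO to WT was 1.23 (0.71 to 1.77), and the pileup in dKO was above that in both other lists by more than counting error. H3C2 (ENSG00000286522.2, chromosome 6, 26031589 to 26032099, minus strand) had 31, 75 and 43 fragments, with a log2 ratio of 1.17 (0.55 to 1.82), and the same order of lists. H2BC12/H2AC12 had 43, 90 and 67 fragments, with a log2 ratio of 0.96 (0.42 to 1.52) and a fold of 4.94, 7.81 and 5.98.

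At the other end, H2BC5 (ENSG00000158373.9, chromosome 6, 26158122 to 26171349, plus strand) had 64, 73 and 65 fragments. Its log2 ratio of dKO to WT was 0.08 (-0.42 to 0.59), and its fold was higher in WT (6.53) than in dKO (5.02) or with BAF53B (5.20), so the direction depended on the background used. The peak shared by H3C1 and H4C1 had 39, 56 and 40 fragments, with a log2 ratio of 0.42 (-0.20 to 1.04). It lies at the start of H4C1, 1099 to 1116 bp past that of H3C1, and a peak at the start of H3C1 itself, with 45 fragments, was called with BAF53B alone. H2AC25/H2BC26, on chromosome 1, had 54, 81 and 66 fragments, with a log2 ratio of 0.48. The intervals of these 3 peaks included 0.

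**Figure D3:**
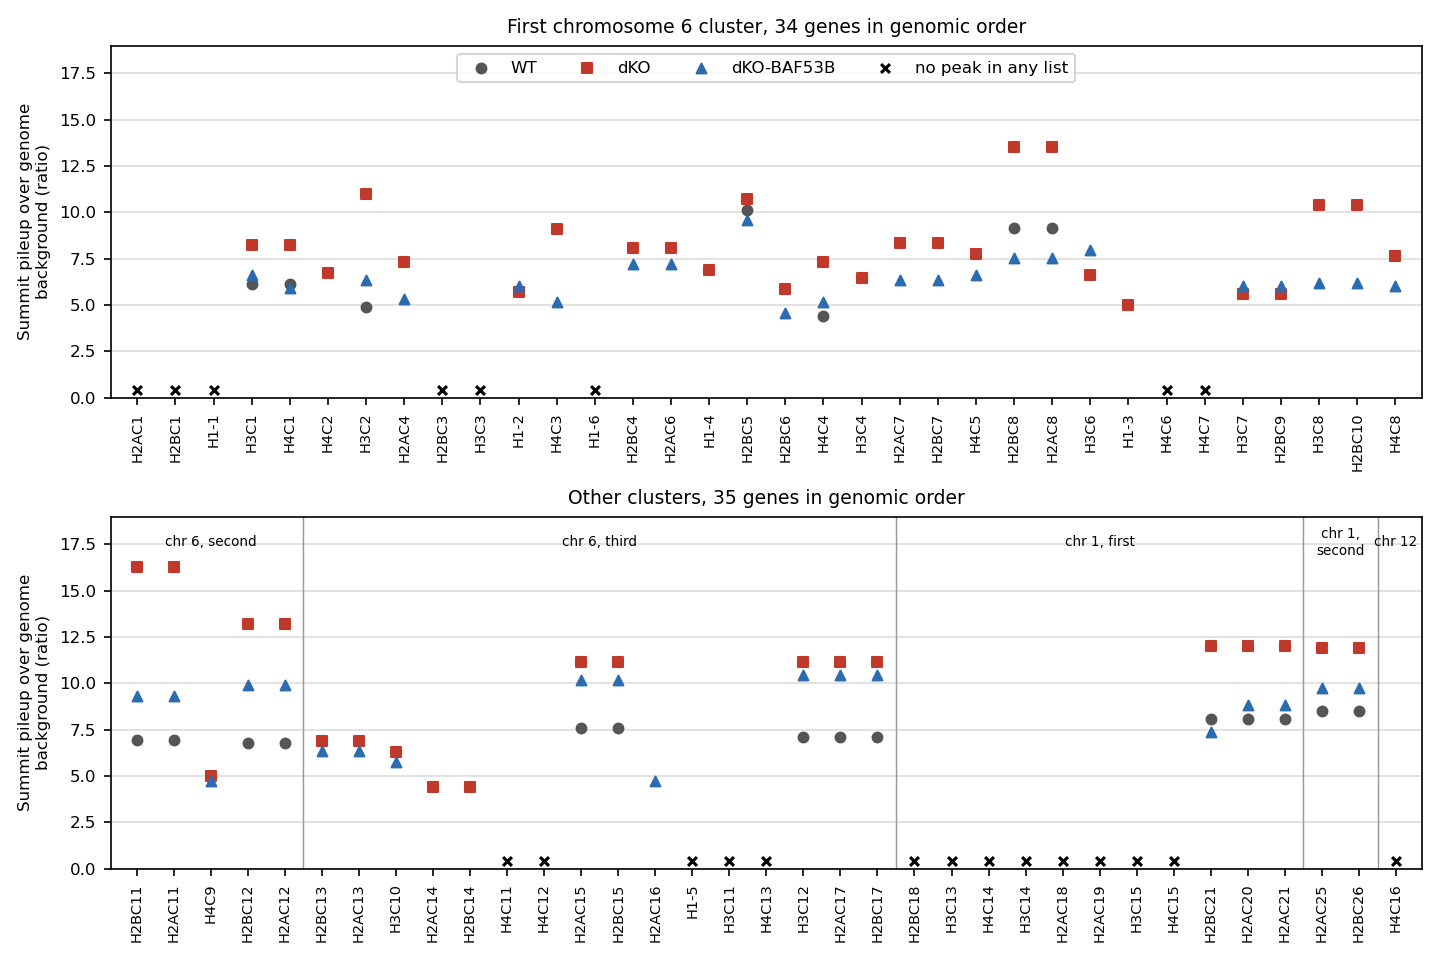
Summit pileup of the strongest peak within 1 kb of the gene start, divided by the genome background of its list (y axis), for all 69 members in genomic order. Members that share a peak have equal values, crosses mark the 22 members without a peak in any list, and the highest value was 16.3 at H2BC11/H2AC11 in dKO.

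With BAF53B, pileups at histone genes were mostly below those in dKO. The log2 ratio of BAF53B to dKO had a median of -0.34 over 27 peak pairs, of which 3 lay above 0 and 6 had an interval below 0, and the median over all genes was -0.43. In 4 of the 27 the strongest peaks of the lists did not overlap, and over the other 23 pairs the median was -0.36 with 2 above 0. The lowest were H2BC8/H2AC8, with 58, 92 and 51 fragments in the 3 lists and a log2 ratio of BAF53B to dKO of -0.84 (-1.37 to -0.33), H4C3 and H2BC11/H2AC11, at -0.81 (-1.28 to -0.35). H2AC15/H2BC15 differed by less than its counting error between these lists, with 48, 76 and 69 fragments and a log2 ratio of -0.13 (-0.62 to 0.36). The ratio of BAF53B to WT had a median of 0.19 over 13 peak pairs, 9 of them above 0, against 0.27 over all genes. The 95% order-statistic interval of this median, -0.08 to 0.43, again describes the spread over peaks and not between replicates. Of the 13 pairs, 1 had an interval of counting error above 0. Over the 11 pairs that overlap, 7 were above 0. The 3 comparisons share lists, so their values are not independent.

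**Figure D4:**
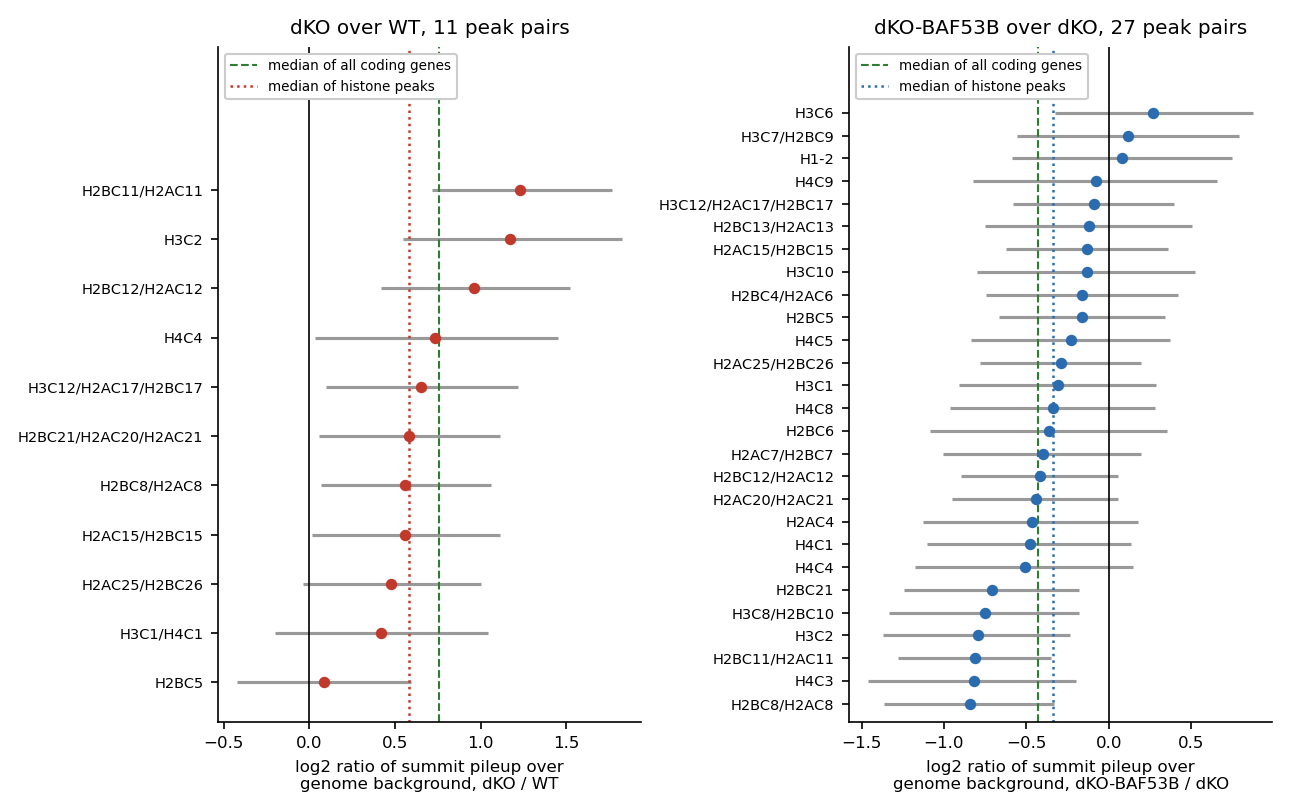
Log2 ratio of background-scaled summit pileup (x axis) for each peak pair at histone genes, dKO over WT (left, 11 pairs) and BAF53B over dKO (right, 27 pairs), with 95% intervals of counting error and the medians over histone peaks and over all coding genes. All dKO to WT points lie above 0, and 24 of the BAF53B to dKO points lie below 0.

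Presence also differed between dKO and BAF53B. A peak in dKO and not with BAF53B was found at 6 members (8.70%), H4C2, H1-4, H3C4, H1-3, H2AC14 and H2BC14, against 12.6% of all genes. Their dKO pileups were 30 to 47 fragments. A peak with BAF53B and not in dKO was found at H2AC16 alone (1.45% against 1.86%), with 32 fragments (3.29-fold) over 211 bp. Members with a peak with BAF53B and not in WT numbered 20 (29.0%) against 16.7% of all genes. The BAF53B list was longer than the WT list (16948 against 7880 peaks), and this count was not recomputed in lists of equal length.

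In 22 members (31.9%, against 45.1% of all genes) no list had a peak. Beside the 8 chromosome 1 genes above, they were H4C16, H2AC1, H2BC1, H1-1, H2BC3, H3C3, H1-6, H4C6, H4C7, H4C11, H4C12, H1-5, H3C11 and H4C13. H2AC1, H2BC1 and H1-6 are known as histone genes of the testis. H4C11 and H4C12 had 76.4% and 77.7% unique words, and the other 12 of these 14 at least 93.2%. H4 was the family with the most genes without a peak, 8 of 15. They include H4C11 and H4C12, and H4C14 and H4C15, which had no unique word. At these genes a missing peak cannot be told apart from sequence repetition.

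Within a list, the histone peaks spread widely over the ranking, with a median below the middle in dKO and with BAF53B. Ranked by fold among all peaks at protein-coding starts, their median percentile was 60.2 in WT (range 6.66 to 97.6). It was 39.5 in dKO (6.52 to 93.5) and 35.7 with BAF53B (5.11 to 92.4). Above the middle lay 7 of 11, 12 of 30 and 9 of 28 peaks. Their median fold was 4.29, 4.17 and 3.81, against 4.05, 4.61 and 4.17 over all such peaks. They were also narrower, with median widths of 484, 721.5 and 620 bp against 562, 809 and 778.5 bp. Peaks of 1 kb or more numbered 0 of 11, 5 of 30 and 2 of 28, against 6.82%, 28.5% and 26.1% over all peaks at gene starts.

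The peaks sat at the promoter and reached into the short genes. The median summit position from the canonical start was -89 bp in WT, -43 bp in dKO and -83.5 bp with BAF53B, against -93, -75 and -82 bp over all genes, where negative values lie before the start. The canonical transcripts of the members had a median length of 487 bases. The peaks covered a median of 22.8% of the transcript at members with a WT peak, 66.7% at those with a dKO peak and 37.5% at those with a BAF53B peak. They covered it whole at 0, 10 and 6 members. These are different sets of members in each list.

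Peaks past the annotated end were found at a few members. In addition to H1-2 and H4C2, a dKO peak had its summit 374 bp past the end of H2AC15 (41 fragments) and another 630 bp past that of H2BC17 (61 fragments), and a BAF53B peak 181 bp past that of H4C1 (35 fragments). The annotated gene of H2BC4 is much longer than its canonical transcript of 460 bases. Its second peak, described above, had its summit 832 bp (dKO) and 870 bp (BAF53B) past the canonical start, and thus past the end of that transcript.

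A few assignments rest on the annotated start. The gene start differs from the canonical start by 11702 bp at H2BC6, 2280 bp at H3C12 and 936 bp at H3C6. The peak counted for H3C12 is that of H2AC17/H2BC17 (45, 76 and 71 fragments), and at the canonical start of H2BC6 a peak was called in dKO alone (34 fragments). H2AC21 shares with H2BC21/H2AC20 the WT peak of 51 fragments, whose summit is 1172 bp from its own start, and the peaks at its own start, in dKO (57) and with BAF53B (60), are also at the start of BOLA1.

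Genes that work with these histones were compared as lists. Over all protein-coding genes, 26.6%, 52.9% and 42.1% had a peak in WT, dKO and BAF53B. Of 20 genes of histone gene transcription and 3′ processing, 12 (60%), 19 (95%) and 18 (90%) had one. NPAT had 42, 117 and 90 fragments, HINFP 60, 136 and 77, and CASP8AP2, another component of the histone locus body, 70, 79 and 81. SLBP, which binds the stem-loop, had no WT peak, 56 fragments in dKO and 35 with BAF53B, and CSTF2 had 25 in WT alone. Of 7 histone chaperone genes 5 (71.4%), 5 (71.4%) and 6 (85.7%) had a peak. Of 74 cytosolic ribosomal protein genes, 42 (56.8%), 64 (86.5%) and 60 (81.1%) had one. Other histone genes, which include the variants and are mostly transcribed outside S phase too, had one at 5 (45.5%), 9 (81.8%) and 7 (63.6%) of 11. All 4 lists lay above the general share in each peak list. Among them H2AZ2 had 77, 133 and 69 fragments, H2AX 39, 133 and 93, and H3-3B 63, 82 and 79.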

How the data were processed

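The members and the gene lists were chosen with earlier results of these data known. Per the labels and the study's methods, the authors trimmed reads with cutadapt 1.13, aligned them to hg38 with Bowtie2 2.2.5, removed duplicates with SAMtools 1.3.1 and Picard 1.90 and called peaks with MACS2, giving 1 list for the 2 replicates of a group (3 lists, 6 samples). The calling options and the shift applied to Tn5 insertions are not given in the sources used here. The deposited fold is the ratio of the summit pileup over the local background, with 1 added to each, and the −log10 of the p-value and of the q-value, also deposited, are from a Poisson model of that pileup. Every peak had a −log10 q of at least 5.

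The whole number of fragments at each summit and its background were solved from the fold and the −log10 p, within 0.01 on the −log10 p scale, and were whole for 100% of peaks. The lowest background of a list served as its depth. Genes came from GENCODE version 44. A gene had a peak where one overlapped 1 kb on either side of its start by at least 1 base, and the strongest fold was taken for ratios. Intervals are exact 95% intervals for the ratio of 2 counts and cover counting error only. No p-value was computed. The named genes were, per family, the 2 of highest dKO fold, every member with a peak in one of WT and dKO alone, the 3 highest and 3 lowest ratios and every member without a peak, beside genes named to explain these. Words were searched on both strands. The steps were tested on simulated data. The software was scipy 1.17.1, pandas 2.3.3 and numpy 2.4.6 under Python 3.11.15, with pysam 0.24.0 for sequence and matplotlib 3.10.9 for figures.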

Additional observations from a re-analysis of the deposited data

How the results depend on the processing

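Of 90 values recomputed under other settings, 85 stayed within 1.5 times the main count or within the 95% order-statistic interval of the main median. No median log2 ratio changed sign. The limits were wide for some medians, such as 21.8 to 91.8 for the percentile in WT, so staying within them says little there. Cutting each list to 7880 peaks left 27 members with a dKO peak and 6 with one in dKO and not in WT (8.70% against 8.90% of all genes), and its 29 members with a BAF53B peak outnumbered those in dKO. A −log10 q of at least 10 left 22 members with a peak with BAF53B. It moved the median percentile in WT from 60.2 to 45.1, across the middle, though this value is counted among the 85. The median log2 ratio was 0.27 for dKO over WT on the authors' fold and -0.49 for BAF53B over dKO on the authors' −log10 p, whose construction differs from that of a pileup ratio. The start of the canonical transcript, a summit within 250 bp of it, pairs of overlapping peaks and the members outside any divergent pair were added after seeing the data. No paired analysis was possible because the columns of the lists carry no replicate number and the 2 replicates of a group are pooled, so leaving out a replicate was not possible either. With summit pileups of 28 to 111 fragments, ratios are known only within the intervals given, and no peak of fewer than 25 fragments was listed, so a gene without a peak may hold fragments.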
